A study of Mus musculus with 13 samples.

Results

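The potassium channel genes of the cardiac action potential examined here were 9 of the 36109 genes listed in the deposited tables: Kcnd2, Kcnd3, Kcnip2, Kcnq1, Kcnh2, Kcna5, Kcnj2, Kcnj14 and Kcnj3. They were chosen by name for their roles in the action potential and conduction, with earlier results of these data known, and none of them encodes a sodium channel, so sodium channel genes are given only as a separate list. RNA was sequenced from whole, fast-frozen hearts and from aortic endothelial cells (ECs) of mice lacking Hmox2, the gene for the carbon monoxide-producing enzyme heme oxygenase-2, and of their wild-type littermates. The 13 libraries comprised hearts of 4 Hmox2+/+ and 3 Hmox2-/- mice and aortic ECs of 3 Hmox2+/+ and 3 Hmox2-/- mice. The labels give room air as the only condition for every mouse, so no library carries another treatment. Hmox2 was deleted in the whole animal, not in 1 cell type. EC RNA was obtained by flushing the aortic lumen with TRI Reagent, so the cells were not sorted. The study describes the sequenced mice as young, and the labels give neither their ages nor their sexes, nor do they say which heart and EC libraries came from 1 mouse. The labels number the samples in each group, and p-values below measure the spread between these libraries.

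Repolarization of the mouse ventricle rests on several potassium currents. The fast transient outward current is carried by the pore proteins Kv4.2 (Kcnd2) and Kv4.3 (Kcnd3) together with the cytosolic subunit KChIP2 (Kcnip2), and inward rectifiers of the Kir2 family hold the resting potential. The slow and rapid delayed rectifiers, KvLQT1 (Kcnq1) and ERG (Kcnh2), weigh less in the adult mouse than in larger mammals, while Kv1.5 (Kcna5) contributes an outward current in the mouse ventricle. Kir3.1 (Kcnj3) is a subunit of the acetylcholine-gated channel, which is best known in atrium and nodal tissue.

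The libraries held between 26067147 and 31619776 estimated counts, except heart Hmox2+/+ 1 with 7268626. Hmox2 itself was measured at 37.3 to 42.5 CPM (counts relative to the scaled library size) in Hmox2+/+ hearts and 7.54 to 8.91 CPM in Hmox2-/- hearts, and at 64.0 to 76.2 CPM against 12.6 to 14.8 CPM in ECs. Mitochondrially encoded transcripts took 37.6% to 44.3% of counts in hearts of Hmox2+/+ mice, against 22.6% to 27.2% in those of Hmox2-/- mice. The summed level of 7 ventricular cardiomyocyte markers lay between 44760 and 52360 CPM in all hearts. The erythroid list summed to 121 to 222 CPM with Hmox2 and to 592 to 985 CPM without it, and the leukocyte list to 82.9 to 122 against 146 to 246 CPM. In the EC libraries, smooth muscle markers summed to 1060 to 6428 CPM and adipocyte markers to 2993 to 4942 CPM, beside 2758 to 5973 CPM for endothelial markers. Y-linked genes summed to 6.51 and 7.13 CPM in EC Hmox2-/- 2 and 3 and to between 148 and 198 CPM in the other EC libraries. Both low sums were in Hmox2-/- libraries, so in ECs genotype and this difference cannot be fully told apart. In whole-heart or luminal RNA, fewer cells of a type and less RNA per cell cannot be told apart.

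Of the 9 genes, Kcnj14 shares sequence with another listed gene to an extent that bears on its value. All 955 of the 2687 words of 31 bases that its transcripts share with any other gene (35.5%) are shared with Gm5522, a processed pseudogene on chromosome 1. Kcnj14 lies on the minus strand of chr7:45465884-45474208 (GRCm39). All 1242 bases of Gm5522 align within the coding part of the transcript Kcnj14-201, with 1231 identical bases (99.1%). The 90-base stretch that holds the most differences is shown for both, to let their likeness be seen. It lies in a coding exon at chr7:45469354-45469443 (minus strand) and at chr1:10875505-10875594 (plus strand) of GRCm39, and the 4 bases that differ are in capitals.
Kcnj14-201: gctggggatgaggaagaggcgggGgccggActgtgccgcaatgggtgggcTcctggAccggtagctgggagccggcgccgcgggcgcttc
Gm5522-201: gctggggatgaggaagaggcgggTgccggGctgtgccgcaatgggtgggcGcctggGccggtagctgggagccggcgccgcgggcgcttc
The estimated count of Gm5522 was 0 in 12 of the 13 libraries and 1.21 in heart Hmox2-/- 3. Kallisto can assign reads within these stretches to either gene, and its estimates gave almost none to Gm5522. Kcnj14 has no value when transcripts with at least 20% shared words are left out. The other 8 genes shared at most 4.31% of their words, the highest being Kcna5. The only listed gene that overlaps any of the 9 is Gm42584, which lies within Kcnd2 on the same strand.

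Across all genes in heart, 33.4% of the 13816 tested passed an adjusted p of at most 0.05, 17.2% higher and 16.2% lower in Hmox2-/- mice. All 9 potassium channel genes passed the low-count filter and 4 passed the test (44.4%): Kcnj14 was higher, and Kcnd2, Kcnd3 and Kcnj2 were lower. Only Kcnj14 was a differentially expressed gene (DEG), that is, it also changed by at least 1 on the log2 scale, as did 6.71% of all genes. The genotypes did not overlap in CPM for 5 of the 9, against 40.4% of all genes. The median log2 fold change of the 9 was -0.15, beside -0.01 over all genes tested. With an offset for gene length and GC content it was 0.01, beside 0.03 over all genes tested.

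**Figure D1:**
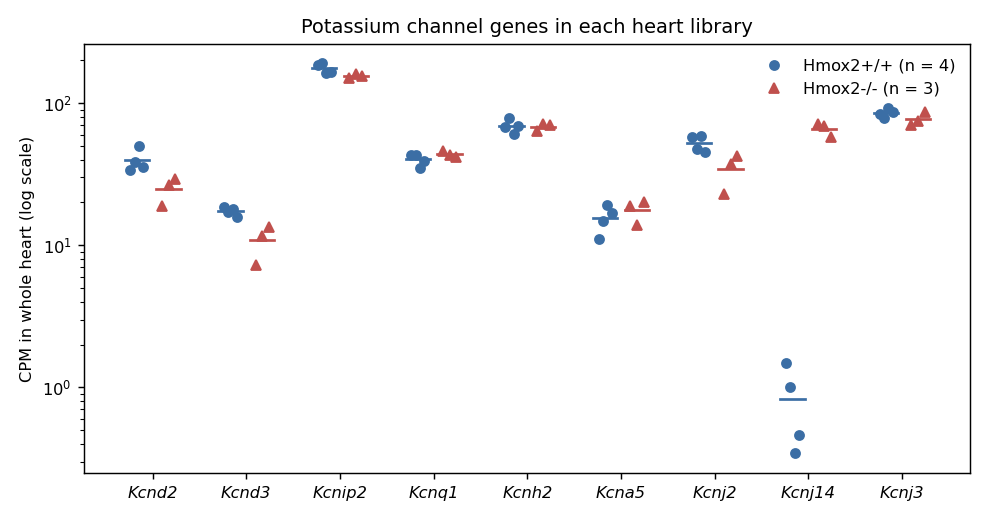
CPM of the 9 potassium channel genes in each heart library on a log axis, with circles for the 4 Hmox2+/+ and triangles for the 3 Hmox2-/- libraries and short lines at the group means. Kcnj14 lies between 0.34 and 1.49 CPM in Hmox2+/+ hearts and between 57.8 and 71.2 CPM in Hmox2-/- hearts, and the points of Kcnd2, Kcnd3 and Kcnj2 lie lower in every Hmox2-/- heart.

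Kcnj14 and Kcnj2, the Kir2 genes among the 9, moved in opposite directions. The further Kir2 genes Kcnj4 and Kcnj12 belong to the list of other potassium channel genes, and of these Kcnj12 passed in heart. Kcnj14, which encodes Kir2.4, was measured at 1.49, 1.00, 0.34 and 0.46 CPM in the 4 Hmox2+/+ hearts and at 71.2, 69.1 and 57.8 CPM in the 3 Hmox2-/- hearts. The estimated counts behind these values were 10, 29, 9 and 13 against 2425, 2283 and 1933. Every Hmox2-/- heart therefore lay far above every Hmox2+/+ heart, and the log2 fold change was 6.58 ± 0.26 (SE, edgeR quasi-likelihood test, adjusted p = 3.14e-08). Per transcript length, its level went from 0.33 ± 0.25 TPM (SD, n = 4) to 29.8 ± 1.47 TPM (SD, n = 3).

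Kcnj2 encodes Kir2.1, the main inward rectifier of ventricular cells. It was measured at 57.6, 47.4, 59.0 and 44.9 CPM in Hmox2+/+ hearts and at 22.8, 37.2 and 42.4 CPM in Hmox2-/- hearts. The groups did not overlap in CPM, although the highest Hmox2-/- heart was near the lowest Hmox2+/+ heart. In TPM the ranges of Kcnj2 overlapped, at 7.49 to 10.1 in Hmox2+/+ and 4.63 to 9.80 in Hmox2-/- hearts. The log2 fold change of Kcnj2 was -0.61 ± 0.19 (SE, edgeR adjusted p = 0.0279). This call was lost without heart Hmox2+/+ 1 (adjusted p = 0.0671), Hmox2+/+ 3 (0.0749) or Hmox2-/- 2 (0.0577) in the same edgeR test. With an offset for gene length and GC content the value fell to -0.11 (adjusted p = 0.544), and without heart Hmox2-/- 1 it was -0.38 (adjusted p = 0.0388). The TPM ranges of Kcnj2 and Kcnj14 did not overlap in either genotype. Kcnj2 stood at 9.03 ± 1.09 TPM (SD, n = 4) in Hmox2+/+ hearts, above Kcnj14, and at 7.44 ± 2.62 TPM (SD, n = 3) in Hmox2-/- hearts, below it.

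The pore genes of the fast transient outward current were lower. Kcnd2 was measured at 33.9, 38.3, 49.9 and 35.8 CPM in Hmox2+/+ hearts and at 18.9, 26.7 and 29.1 CPM in Hmox2-/- hearts. All Hmox2-/- CPM values lay under all Hmox2+/+ values, with a log2 fold change of -0.67 ± 0.17 (SE, edgeR adjusted p = 0.0118). In TPM the ranges of Kcnd2 overlapped, at 6.29 to 8.35 in Hmox2+/+ and 4.07 to 7.14 in Hmox2-/- hearts. Kcnd3 was measured at 18.4, 17.2, 17.9 and 15.8 CPM in Hmox2+/+ hearts and at 7.29, 11.7 and 13.5 CPM in Hmox2-/- hearts. Here too the groups did not overlap in CPM, with a log2 fold change of -0.68 ± 0.18 (SE, edgeR adjusted p = 0.0151). In TPM the ranges of Kcnd3 overlapped, at 2.36 to 3.30 in Hmox2+/+ and 1.38 to 3.23 in Hmox2-/- hearts. Heart Hmox2-/- 1 was the lowest library for Kcnd2, Kcnd3 and Kcnj2 alike. With the length and GC offset both still passed, at -0.39 and -0.38 (adjusted p = 0.0349 and 0.0378, edgeR). Both calls held when each library was left out in turn, and both were lost in a single fit of all 13 libraries with 1 shared estimate of the spread (adjusted p = 0.172 and 0.132, edgeR), where the call of Kcnj2 was also lost (0.0698).

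Kcnip2, whose protein binds the Kv4 pore and raises its surface expression, was the most abundant of the 9 in both genotypes. It was measured at 185, 190, 162 and 166 CPM in Hmox2+/+ hearts and at 149, 161 and 154 CPM in Hmox2-/- hearts. In CPM the groups were separated by a narrow margin, and the gene did not pass the test (log2 fold change -0.19, 95% interval -0.39 to 0.02, edgeR adjusted p = 0.153). In TPM they overlapped, and the mean was higher in Hmox2-/- hearts (87.0 against 78.9 TPM). With the length and GC offset Kcnip2 passed, at -0.28 (edgeR adjusted p = 0.0226). The ratio of Kcnip2 to the sum of Kcnd2 and Kcnd3, taken from TPM within each library, was 8.27, 8.99, 6.26 and 8.09 in Hmox2+/+ hearts and 14.4, 10.4 and 9.31 in Hmox2-/- hearts. Each Hmox2-/- ratio was above each Hmox2+/+ ratio, and the mean log2 ratio was higher by 0.51 (exact two-sided permutation test, p = 0.0286, the smallest that 35 assignments allow). With the length and GC offset, the fitted changes of Kcnip2 (-0.28), Kcnd2 (-0.39) and Kcnd3 (-0.38) lay closer together than without it (-0.19, -0.67 and -0.68), and the ratio itself carries no such correction. This comparison reuses the Kcnd2 and Kcnd3 values above and is not separate evidence of their direction.

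The delayed rectifier genes did not pass the test in heart. Kcnq1, the pore of the slow current, was measured at 43.4, 43.1, 35.2 and 38.8 CPM in Hmox2+/+ hearts and at 46.0, 43.4 and 42.0 CPM in Hmox2-/- hearts. The ranges overlapped, with a log2 fold change of 0.13 (95% interval -0.09 to 0.35, edgeR adjusted p = 0.341). Kcnh2, the pore of the rapid current, was measured at 67.8, 78.9, 60.8 and 69.0 CPM against 63.7, 71.0 and 69.8 CPM. Its Hmox2-/- values lay within the Hmox2+/+ range, and the interval of the log2 fold change ran from -0.25 to 0.21 around -0.02 (edgeR adjusted p = 0.894). Kcna5 was measured at 11, 14.9, 19.3 and 16.9 CPM against 19.0, 13.9 and 20.3 CPM. It varied most among the Hmox2+/+ hearts of the 3 delayed rectifier genes, and its interval was correspondingly wide (log2 fold change 0.16, 95% interval -0.22 to 0.55, edgeR adjusted p = 0.499).

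Kcnj3 was measured at 84.3, 78.2, 92.6 and 87.0 CPM in Hmox2+/+ hearts and at 69.9, 74.3 and 87.0 CPM in Hmox2-/- hearts. The ranges overlapped and the gene did not pass the test (log2 fold change -0.15, 95% interval -0.38 to 0.08, edgeR adjusted p = 0.283). The label calls the tissue whole heart, yet the atrial markers Myl7 and Myl4, the light chains of atrial myosin, reached at most 13.2 CPM each. Bmp10, a growth factor of atrial myocytes, was at 0 in 6 of the 7 hearts. The atrial list summed to 491 to 677 CPM in Hmox2+/+ and 236 to 383 CPM in Hmox2-/- hearts, nearly all of it Nppa, the atrial natriuretic peptide gene. Of the 7 atrial markers, 5 were tested in heart and all 5 passed. Nppa was lower (log2 fold change -1.15), while Myl4, Myl7, Dkk3 and Stard10 were higher (2.27, 2.92, 1.37 and 0.49), so the sum and the median of the list (1.37) differ in direction. The part of atrial content in the Kcnj3 values was not tested.

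**Figure D2:**
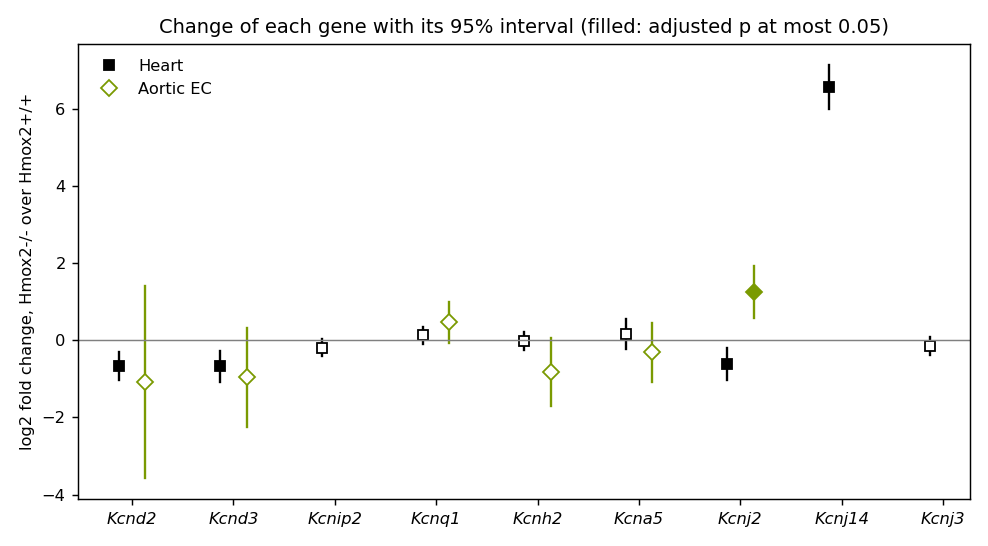
Log2 fold change (Hmox2-/- over Hmox2+/+) of each gene with its 95% interval in heart (squares) and aortic ECs (diamonds), filled where the adjusted p was at most 0.05. Kcnj14 stands at 6.58 in heart, the other heart values lie between -0.68 and 0.16, and Kcnj2 is filled on both sides of 0, at -0.61 in heart and 1.25 in ECs. Kcnip2, Kcnj14 and Kcnj3 were not tested in ECs.

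Per transcript length, the order in Hmox2+/+ hearts was Kcnip2 (78.9 ± 13.5 TPM, SD, n = 4), Kcnh2 (21.7 ± 3.96), Kcnj3 (18.2 ± 1.34), Kcnq1 (13.1 ± 2.24), Kcnj2 (9.03 ± 1.09), Kcnd2 (7.20 ± 1.06), Kcna5 (5.24 ± 0.99), Kcnd3 (2.81 ± 0.43) and Kcnj14. The ranges of Kcnh2 and Kcnj3 overlapped, as did those of Kcnj2 and Kcnd2, and all other neighbours in this order were separated. In Hmox2-/- hearts Kcnj14 stood second, at 28.2 to 30.9 TPM, under Kcnip2 at 78.2 to 96.5 TPM and just above Kcnh2 at 23.8 to 26.8 TPM. Kcnh2, Kcnj3 and Kcnq1 followed with overlapping neighbours, then Kcna5, Kcnj2 and Kcnd2, again overlapping, with Kcnd3 last at 1.38 to 3.23 TPM. TPM is a share of all transcripts, so these levels also carry the difference in mitochondrial share between the genotypes given above.

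The 9 genes were listed with 35 transcripts, of which 20 passed the filter in heart and 2 passed the test at the transcript level, beside 6.10% of all 31575 transcripts tested. Kcnj14-201, the coding transcript that holds 100% of the gene's TPM in every heart but Hmox2+/+ 1, had a log2 fold change of 6.58 ± 0.39 (SE, edgeR adjusted p = 0.00065). Kcnip2-204, annotated as a retained intron, was measured at 15.9, 14.5, 9.36 and 12.8 CPM in Hmox2+/+ hearts and at 5.87, 6.21 and 3.93 CPM in Hmox2-/- hearts. It was lower in every Hmox2-/- heart, with a log2 fold change of -1.30 ± 0.25 (SE, edgeR adjusted p = 0.0332), and its call was lost on leaving out any 1 heart library except Hmox2+/+ 3. The coding transcripts Kcnip2-209 and Kcnip2-202, which together held most of the gene's TPM, had log2 fold changes of -0.11 and -0.02 and did not pass (edgeR adjusted p = 0.672 and 0.933). Kcnd2, Kcnj2 and Kcna5 were listed with 1 transcript each. The uncertainty of dividing reads between transcripts is not part of these tests.

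Kcnj14 was also set beside the genes around it, a choice made after its values had been seen. Of the 6 other listed genes within 50 kb, 4 were tested in heart. Grwd1, a ribosome assembly factor, and Cyth2, an Arf exchange factor, flank Kcnj14 on the same strand and were higher in Hmox2-/- hearts, by 0.77 ± 0.16 and 0.41 ± 0.12 on the log2 scale (SE, edgeR adjusted p = 0.0054 and 0.0216). Grin2d (-0.09) and Kdelr1 (-0.05) did not pass the test. Of all genes tested in heart, 33.4% passed, and 17.2% passed and were higher. The changes of Grwd1 and Cyth2 were much smaller than the 6.58 of Kcnj14.

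For the 4 genes that passed the test, the heart genes with the most similar log2 CPM over the 7 heart libraries were listed as a description. They were Zdhhc9 and Sec14l5 for Kcnd2 (Pearson r 0.992 and 0.991), Lpp and Cntrl for Kcnd3 (0.998 and 0.997), Garnl3 and Mlxip for Kcnj2 (0.996 and 0.994), and Tmem14c and Lgi2 for Kcnj14 (0.998 and 0.997). These 7 points share the genotype split and the same libraries.

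Promoters were looked at for the 3 genes that were lower together. The RefSeq table (GRCm38.p6, 250 bases before to 50 after the start) held 7 of the 9 genes, without Kcnq1 and Kcnj14. On both strands 6 motifs were searched. They were the GC box (letters GGGCGG), a known binding sequence of Sp1, and 2 forms of the E-box, which basic helix-loop-helix factors bind (letters CACGTG for the first form and, for the second form, letters CAGCTG). The others were the box that binds the general factor TBP (letters TATAAA), a motif of GATA factors (letters AGATAA) and the response element of cyclic AMP (letters TGACGTCA). Matches are in capitals, and none overlapped a match of another motif. The sequences are those of Kcnd2 at chr6:21215096-21215395, Kcnd3 at chr3:105451640-105451939 and Kcnj2 at chr11:111065914-111066213, all on the plus strand.
Kcnd2: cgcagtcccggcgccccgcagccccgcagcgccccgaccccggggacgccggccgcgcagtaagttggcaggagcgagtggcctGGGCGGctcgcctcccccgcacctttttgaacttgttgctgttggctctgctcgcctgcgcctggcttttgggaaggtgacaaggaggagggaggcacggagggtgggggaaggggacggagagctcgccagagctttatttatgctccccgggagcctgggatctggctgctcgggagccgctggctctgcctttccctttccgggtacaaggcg
Kcnd3: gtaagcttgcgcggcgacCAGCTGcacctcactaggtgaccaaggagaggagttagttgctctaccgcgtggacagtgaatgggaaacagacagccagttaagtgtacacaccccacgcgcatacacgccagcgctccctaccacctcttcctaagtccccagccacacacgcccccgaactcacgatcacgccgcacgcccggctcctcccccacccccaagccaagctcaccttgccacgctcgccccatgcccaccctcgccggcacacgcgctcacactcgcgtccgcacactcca
Kcnj2: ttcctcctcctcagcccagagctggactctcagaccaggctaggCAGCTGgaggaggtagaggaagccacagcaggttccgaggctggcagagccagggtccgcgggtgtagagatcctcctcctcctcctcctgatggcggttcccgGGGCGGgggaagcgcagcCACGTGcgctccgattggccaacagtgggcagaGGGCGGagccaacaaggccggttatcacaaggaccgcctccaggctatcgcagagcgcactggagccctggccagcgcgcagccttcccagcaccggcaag
Kcnd2 held GGGCGG at 1 place and Kcnj2 at 2, while Kcnd3 held none; 35.7% of the 32851 promoters of this length hold it. Of the genes that did not pass in heart, Kcnip2, Kcnh2 and Kcnj3 also held GGGCGG, at 2, 3 and 1 places. CAGCTG was found in Kcnd3 and Kcnj2 and also in Kcnj3 and Kcna5 (16.3% of all promoters), and CACGTG in Kcnj2 alone of the 7 (7.15%). TATAAA (13.6% of all), AGATAA (11.2%) and TGACGTCA (1.79%) were found in none of the 7. The 3 promoters held 26, 25 and 18 CG dinucleotides, beside a median of 7 over all promoters. Of the genes that did not pass in heart, Kcnh2, Kcnip2, Kcnj3 and Kcna5 held 19, 18, 10 and 4. No motif was shared by all 3 of Kcnd2, Kcnd3 and Kcnj2, and a match of letters is a description of the window only.

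In Hmox2+/+ libraries each of the 9 genes had a lower mean TPM in aortic ECs than in heart. The gap was least for Kcnh2, at 7.80 TPM in ECs against 21.7 TPM in heart. In ECs, 6 of the 9 genes passed the low-count filter and 1 passed the test, Kcnj2, which was higher. Across all 15301 genes tested in ECs, 18.1% passed, 10% higher and 8.06% lower, and 9.28% were DEGs. The genotypes did not overlap for 1 of the 6, beside 40.7% of all genes. Kcnj2 was measured at 5.50, 3.51 and 3.37 CPM in Hmox2+/+ ECs and at 7.52, 13.2 and 8.79 CPM in Hmox2-/- ECs. Each Hmox2-/- library lay above each Hmox2+/+ library, with a log2 fold change of 1.25 ± 0.29 (SE, edgeR adjusted p = 0.0285). The call was lost without EC Hmox2+/+ 2, Hmox2+/+ 3, Hmox2-/- 2 or Hmox2-/- 3 (adjusted p = 0.0741, 0.0539, 0.0903 and 0.0786, edgeR). In the 4 libraries with Y-linked sums of at least 148 CPM, which hold a single Hmox2-/- library whose spread is assumed to be that of the others, the value was 0.87 (adjusted p = 0.373), and with the length and GC offset it was 0.77 (adjusted p = 0.114). Endothelial markers summed to 2758 to 4065 CPM in Hmox2+/+ and 4843 to 5973 CPM in Hmox2-/- ECs, and smooth muscle markers to 3288 to 6428 against 1060 to 3632 CPM. Fibroblast markers summed to 2164 to 3854 against 4923 to 5398 CPM, and leukocyte markers to 281 to 413 against 509 to 855 CPM. The endothelial, fibroblast and leukocyte sums were all higher in Hmox2-/- ECs without overlap, as was Kcnj2. Of the 7 endothelial markers, 5 were higher and 2 lower. Of the 6 fibroblast markers, 5 were higher and 1 lower. Of the 6 leukocyte markers, 3 were higher and 3 lower (median log2 fold change 0.13), and only Cd68 and Lyz2 passed. The part of these cell types in the Kcnj2 values was not tested.

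Among the other genes tested in ECs, Kcnh2 was the most abundant, at 24.9, 11.1 and 16.9 CPM in Hmox2+/+ ECs and 15.3, 7.97 and 6.66 CPM in Hmox2-/- ECs. The ranges overlapped and the gene did not pass (log2 fold change -0.82, 95% interval -1.71 to 0.07, edgeR adjusted p = 0.171). Kcnq1 was measured at 4.17, 3.64 and 5.72 CPM against 6.62, 6.44 and 5.70 CPM, again with overlapping ranges (0.47, 95% interval -0.07 to 1.01, edgeR adjusted p = 0.187). With counts from length-scaled TPM, Kcnq1 passed in ECs at 0.93 (adjusted p = 0.0415, edgeR). Kcnd3, Kcnd2 and Kcna5 stayed under 3 CPM in every EC library and did not pass, with log2 fold changes of -0.96 (95% interval -2.25 to 0.32), -1.08 (-3.58 to 1.41) and -0.31 (-1.08 to 0.46). Single libraries moved these values by over 1.5 times: Kcnd3 was -1.83 without EC Hmox2-/- 1 and -0.59 without EC Hmox2-/- 2, Kcnd2 was -0.37 without EC Hmox2+/+ 2 and -0.49 without EC Hmox2-/- 1, and Kcna5 was -0.08 without EC Hmox2+/+ 2, -0.17 without EC Hmox2-/- 2 and -0.48 without EC Hmox2+/+ 3. Kcnj14 had 0, 4 and 2 estimated counts in Hmox2+/+ ECs and 0, 13 and 16 in Hmox2-/- ECs and was not tested there.

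**Figure D3:**
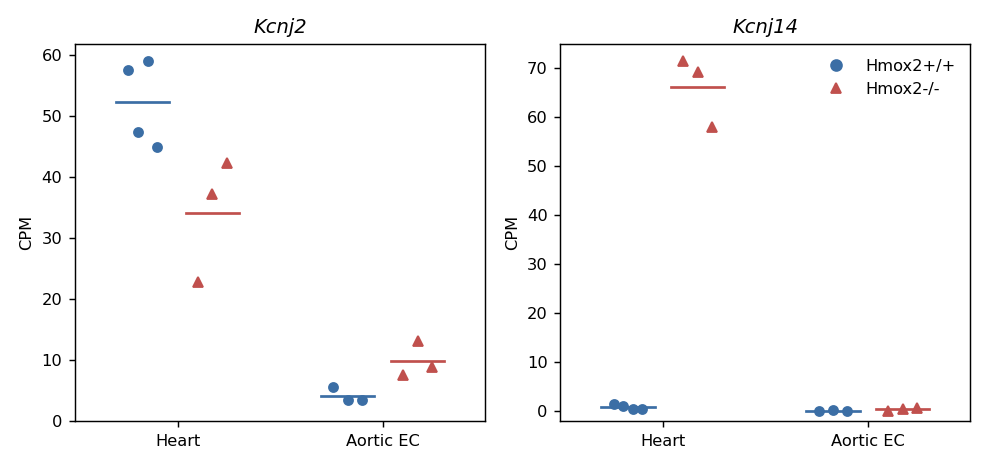
CPM of Kcnj2 (left) and Kcnj14 (right) in each heart and aortic EC library, with circles for Hmox2+/+, triangles for Hmox2-/- and lines at the group means. Kcnj2 lies lower in Hmox2-/- hearts and higher in Hmox2-/- ECs, whereas Kcnj14 is above 2 CPM in the 3 Hmox2-/- hearts alone.

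The change in heart minus the change in ECs was tested as a tissue by genotype interaction over the 13 libraries. It passed for 3 of the 9 genes, beside 28.8% of all genes, namely Kcnj2, Kcnip2 and Kcnj3. For Kcnj2 the difference was -1.82 ± 0.35 on the log2 scale (SE, edgeR adjusted p = 0.0025). In CPM all hearts and all ECs were separated by genotype in opposite directions. With the length and GC offset, Kcnj2 did not pass (-0.90, adjusted p = 0.0538). Kcnj14 reached 4.29 ± 1.62 (SE, edgeR adjusted p = 0.0615) and did not pass, but it passed in 5 of 20 alternatives, among them DESeq2 (adjusted p = 0.0165), no low-count filter (0.0354), and leaving out EC Hmox2+/+ 1 (0.0479) or EC Hmox2-/- 1 (0.0296). The EC part of the Kcnj14 value rests on 0, 4 and 2 against 0, 13 and 16 estimated counts. Kcnj14 did not pass the filter in ECs alone. With so few counts, these alternatives cannot decide whether its change differs between tissues. With length-scaled TPM, Kcnq1 passed (-0.80, edgeR adjusted p = 0.0201) and Kcnip2 did not (1.74, adjusted p = 0.0788).

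The differences of Kcnip2 (2.66 ± 0.75, SE, edgeR adjusted p = 0.0178) and Kcnj3 (5.19 ± 1.58, SE, edgeR adjusted p = 0.0287) rest on few EC counts. Kcnip2 had 6, 35 and 8 estimated counts in Hmox2+/+ ECs and 2, 1 and 3 in Hmox2-/- ECs. Kcnj3 had 2, 17 and 1 against 0 in each Hmox2-/- library, where a count of 0 allows up to 3 counts per library, counting error only, so its fitted value depends on the prior count and is no bound. For both genes EC Hmox2+/+ 2 was the highest library. In that library the 7 ventricular cardiomyocyte markers summed to 454 CPM, against 113 and 158 CPM in the other Hmox2+/+ ECs and 5.49, 5.50 and 8.34 CPM in the Hmox2-/- ECs. Without EC Hmox2+/+ 2 neither gene passed (adjusted p = 0.0723 and 0.085, edgeR). The calls were also lost without EC Hmox2-/- 2 (0.055 and 0.0574), and that of Kcnj3 without EC Hmox2-/- 1 (0.0533) or Hmox2-/- 3 (0.0644). The part of cardiomyocyte RNA in these values was not tested.

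**Figure D4:**
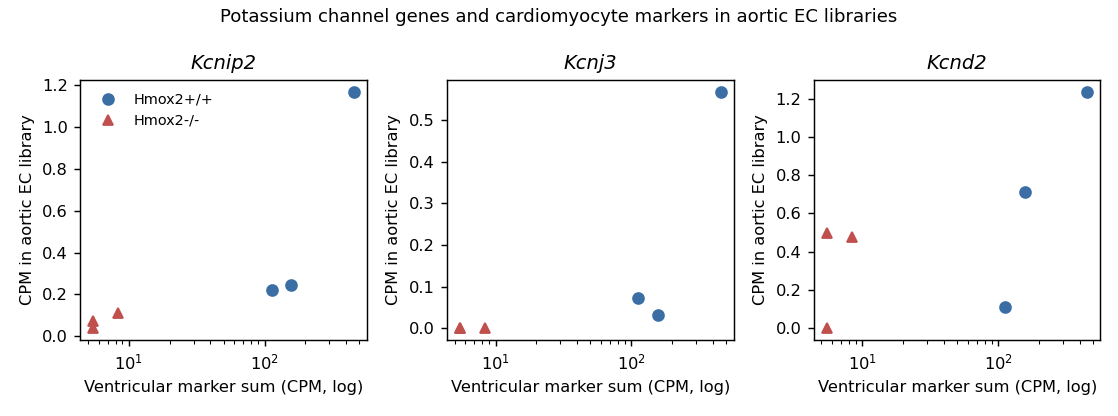
CPM of Kcnip2, Kcnj3 and Kcnd2 in each aortic EC library against the summed CPM of 7 ventricular cardiomyocyte markers on a log axis, with circles for Hmox2+/+ and triangles for Hmox2-/- libraries. EC Hmox2+/+ 2, at 454 CPM of markers, is the highest point in every panel, and the 3 Hmox2-/- libraries lie at or under 8.34 CPM of markers.

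The other potassium channel genes of heart were more often lower than higher. Of 50 listed potassium channel and subunit genes, 38 were tested in heart and 16 passed (42.1%, beside 33.4% of all genes). Of these, 3 were higher and 13 lower, and 8 were DEGs. Over all genes tested in heart, 17.2% passed and were higher, 16.2% passed and were lower, and 6.71% were DEGs. The median log2 fold change of the 38 was -0.32, beside -0.01 over all genes. This list was not read with the length and GC offset. Dpp10, an auxiliary subunit of Kv4 channels, was measured at 0.47, 0.35, 0.78 and 0.82 CPM in Hmox2+/+ hearts and at 0.03, 0.10 and 0.26 CPM in Hmox2-/- hearts, and fell by 2.20 ± 0.63 on the log2 scale (SE, edgeR adjusted p = 0.0202). Kcna4, the pore of the slow transient outward current, fell from 2.68, 3.50, 2.89 and 3.12 CPM to 1.27, 0.67 and 1.41 CPM, by 1.47 ± 0.27 (SE, edgeR adjusted p = 0.0028). Kcnq5, of the Kcnq1 family, fell by 1.82 (adjusted p = 0.0159, edgeR) at under 1 CPM, and Kcnk1, of the tandem-pore family, rose by 2.03 (adjusted p = 0.0099, edgeR), also at under 1 CPM. For Dpp10 and Kcna4, as for Kcnd2 and Kcnd3, the Hmox2+/+ and Hmox2-/- hearts did not overlap in CPM.

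Of 28 sodium channel and conduction genes, 23 were tested in heart and 10 passed (43.5%, beside 33.4% of all genes). Of these, 3 were higher and 7 lower, beside 17.2% of all genes that passed and were higher and 16.2% lower. The median log2 fold change of the 23 was -0.26, beside -0.01 over all genes. Neither this list nor the potassium list was read with the length and GC offset, in heart or in ECs. The genes named are the 4 that changed most. Scn4b, a beta subunit of sodium channels, was measured at 35.4, 33.2, 61.9 and 29.1 CPM in Hmox2+/+ hearts and at 23.0, 19.0 and 17.8 CPM in Hmox2-/- hearts, and fell by 1.01 ± 0.23 (SE, edgeR adjusted p = 0.0078). Irx3, a transcription factor of the ventricular conduction system, fell by 0.88 from 21.4 to 38.3 CPM to 11.3 to 17.9 CPM (adjusted p = 0.01, edgeR). Cacna1g, a T-type calcium channel, fell by 0.80 (adjusted p = 0.0017, edgeR) and Cacna1d, an L-type channel of pacemaker and atrial cells, by 1.06 (adjusted p = 0.0309, edgeR).

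**Figure D5:**
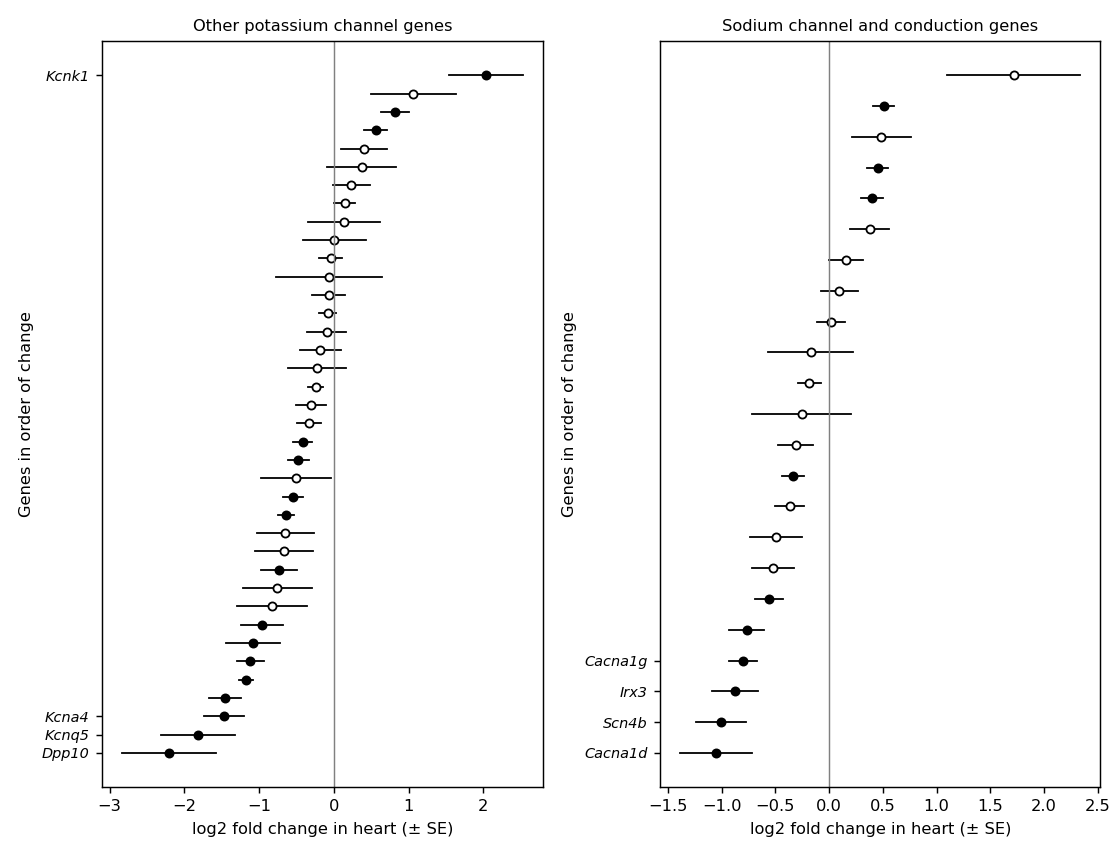
Log2 fold change in heart (Hmox2-/- over Hmox2+/+) with its SE for the 38 tested genes of the other potassium channel list (left) and the 23 tested genes of the sodium channel and conduction list (right), filled where the adjusted p was at most 0.05, with 1 row per gene in order of change and names for the 4 passing genes of each list that changed most. Filled points to the left of 0 number 13 and 7, and those to the right 3 in each panel.

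In ECs, 32 genes of the potassium list were tested and 7 passed (21.9%, 3 higher and 4 lower), near the 18.1% of all genes, with a median log2 fold change of -0.65, beside -0.02 over all genes. Kcnj15, an inward rectifier, was measured at 5.37, 5.55 and 5.97 CPM in Hmox2+/+ ECs and at 1.37, 0.72 and 0.80 CPM in Hmox2-/- ECs, and fell by 2.52 ± 0.31 (SE, edgeR adjusted p = 0.0041). Kcnq5 fell by 1.47, while Kcne3, a beta subunit, rose by 1.37 (adjusted p = 0.0365 and 0.0345, edgeR). Of the conduction list, 20 genes were tested in ECs and 4 passed (20%, beside 18.1% of all genes), 3 higher and 1 lower. Over all genes tested in ECs, 10% passed and were higher, and 8.06% passed and were lower. Gja5, the connexin of arterial endothelium and Purkinje fibres, was measured at 147, 230 and 253 CPM in Hmox2+/+ and at 336, 514 and 406 CPM in Hmox2-/- ECs, and rose by 1.00 ± 0.25 (SE, edgeR adjusted p = 0.0327). Scn7a, a sodium channel relative, rose by 0.69, and Popdc2, a cyclic AMP-binding protein of muscle, fell by 1.33 (adjusted p = 0.0389 and 0.014, edgeR). Popdc2 and Gja5 stand beside the cell marker sums given above for these libraries, whose part in them was not tested.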

How the data were processed

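RNA from whole hearts (7 libraries) and aortic EC preparations (6 libraries) was sequenced from poly(A) RNA as paired reads. The authors pseudoaligned the reads with Kallisto 0.44.0 and deposited, for each library and transcript, the estimated count, the TPM and the effective length, without scaling between libraries. The study's methods name GENCODE M32, while the submitters' processing notes list mm10 and GRCh38.p13. Of the 118489 listed transcripts, 115140 (97.2%) matched GENCODE M39 by identifier without the version, and 73.7% of these have the length of the M39 transcript. Unmatched transcripts, 0.755% to 1.01% of counts, were left out. Strand was not used by default, so reads of genes that overlap on opposite strands cannot be told apart.

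Expected counts and TPM were summed per gene. Counts were rounded, filtered with filterByExpr (minimum count 10), scaled by TMM and compared within each tissue by the quasi-likelihood F-test of edgeR 4.0.16 (R 4.3.3), with Benjamini-Hochberg adjustment over all genes tested. A gene passed at an adjusted p of at most 0.05, and a DEG also changed by at least 1 on the log2 scale. Changes are Hmox2-/- over Hmox2+/+. CPM values are TMM-scaled. The spread (biological coefficient of variation) was 0.149 in heart and 0.241 in ECs. The scripts were tested on simulated counts. No 2 libraries agreed within sampling noise. The alternatives, among them DESeq2 1.42.0, are given in the closing section. Effective lengths served for the length-scaled TPM only.

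The 9 genes, the lists of other channel genes and the cell markers were chosen with earlier results of these data known. The genes named are the 9, at most 4 of each other list and tissue by largest absolute log2 fold change among those that passed, the 2 most alike genes for each of the 9 that passed in heart, genes that overlap any of the 9 or share at least 5% of its 31-base words, and Hmox2. Some genes that this rule covers are not reported here. The neighbours of Kcnj14 and the markers Myl4, Myl7, Bmp10 and Nppa were named after their values were seen. Sequences are from GENCODE M39 (GRCm39) and RefSeq (GRCm38.p6).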

Additional observations from a re-analysis of the deposited data

Results flagged for a closer look

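The change in heart minus the change in aortic ECs passed the interaction test of edgeR for 3 of the 9 genes. For Kcnj2 it was -1.82 on the log2 scale (adjusted p = 0.0025), with lower CPM in all 3 Hmox2-/- hearts and higher CPM in all 3 Hmox2-/- EC libraries. For Kcnip2 it was 2.66 (adjusted p = 0.0178) and for Kcnj3 5.19 (adjusted p = 0.0287), both at no more than 35 estimated counts in any EC library. No Hmox2+/+ heart stood apart from the other 3 in CPM of any of the 9 genes or in the Kcnip2 ratio by Dixon's 95% criterion for 4 samples. The widest gap was that of heart Hmox2+/+ 3 for Kcnd2, at 0.725 of the range. The other groups, of 3 libraries each, were not tested this way.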

How the results depend on the processing

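In heart, Kcnj14 passed with a log2 fold change of 6.30 to 6.93 under all 15 alternatives that gave it a value, and Kcnd2 and Kcnd3 passed in 15 of 16 each. The number of genes of the 9 that passed in heart was 4, and 3 to 4 on leaving out each library. In 1 fit of all libraries it was 1. In ECs the number was 1, and 0 to 1 on leaving out each library. It was 2 with length-scaled TPM (Kcnq1 besides Kcnj2), 0 with the length and GC offset, 4 in 1 fit of all libraries and 0 with only the 4 EC libraries of high Y-linked sums. For the difference between tissues it was 3, and 1 to 5 on leaving out each library, with 1 without EC Hmox2-/- 2 and 5 without EC Hmox2-/- 1. Of the transcripts, 2 passed in heart, and 1 to 2 on leaving out each library. The ratio of Kcnip2 to Kcnd2 and Kcnd3 was not recomputed with the length and GC offset. Its mean log2 value differed by 0.51, and by 0.33 to 0.64 on leaving out each library (exact permutation p = 0.0667 to 0.2, where none could reach 0.05 with 4 against 2 or 3 against 3). Same-numbered libraries deviated together little (r -0.03, 0.08 and 0.04 in heart, and 0.18, 0.04 and 0.09 in ECs). For libraries of unlike number r ran from -0.11 to 0.08 in heart and from -0.23 to 0.16 in ECs. No pairing by number was seen, but with so few libraries per group this check cannot exclude one. With the replicate block, 4 genes passed in heart, 2 in ECs, 5 for the difference between tissues and 0 transcripts. The block moved the count over all genes in heart from 4618 to 2899. Values that had not passed as reported changed sign for Kcnh2 in heart (0.013 with the length and GC offset, 0.010 with transcripts under 20% shared words, and -0.083 to 0.060 on leaving out each library, positive without Hmox2+/+ 2 or Hmox2-/- 1), for Kcnj3 in heart (0.13 with the length and GC offset), and for the difference between tissues of Kcnd2 (-0.20 to 0.96 on leaving out each library, negative without EC Hmox2+/+ 2 or EC Hmox2-/- 1) and Kcnd3 (-0.051 to 1.19, negative without EC Hmox2-/- 2). With upper-quartile factors, 46.0% of all genes that differed between tissues did so in the positive direction, against 56.1%. In 1 fit of all libraries, 44.6% of the genes that passed in ECs were higher, against 55.4%. The count of all genes that passed in heart was 5686 without Hmox2-/- 3 and 2888 without Hmox2-/- 2. In ECs it was 638 without Hmox2-/- 3 and 49 with only the libraries of high Y-linked sums, where 1 Hmox2-/- library remained. The cause of these differences was not tested.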
